A study of Homo sapiens with 28 samples.

Results

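H3K36me2 peaks that touch no protein-coding gene were compared between TKO cells expressing the D1240A form of NSD2 (D1240A) and the same cells with its wild type form (WT). The set holds 59871 peaks of the D1240A list and 47827 peaks of the WT list, 107698 in all, out of 98114 and 71039 autosomal H3K36me2 peaks of these lists and of 912054 autosomal peaks in all 12 lists of the study. Members were chosen by position alone, as peaks on chromosomes 1 to 22 that do not overlap the body of any protein-coding gene of GRCh38. All samples carry the label TKO, a cell line described there as plasma cells derived from KMS-11, a human multiple myeloma line, with the genotype WHSC1(+/-). The gene WHSC1 is now called NSD2. The study has D1240A, F1295A, TKO with no expressed form named, and WT, each profiled for 3 marks by ChIPmentation, in which a transposase inserts sequencing adapters on immunoprecipitated chromatin. D1240A and F1295A are mutant forms of NSD2. How the forms were expressed, and whether a line is 1 clone, is not given in the sources used here.

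NSD2 is a histone methyltransferase that writes mono- and dimethylation on lysine 36 of histone H3. In myeloma with the t(4;14) translocation NSD2 is overexpressed, and H3K36me2 is known to spread from gene bodies into the DNA between genes, where it counters H3K27me3, the mark of Polycomb repression. H3K27ac marks active promoters and enhancers.

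Each list was called by the authors on both replicates of a condition together. There is therefore 1 list per condition, no replicate error and no significance test, and a difference between lists cannot be told apart from a difference between libraries. Pileup is the number of fragments over the highest point of a peak, given here as counted or per 10000000 kept fragments. Fewer cells with the mark and less of the mark per cell cannot be told apart. The lists rest on 64588375 kept fragments in D1240A, 69211726 in F1295A, 69008405 in TKO and 62550152 in WT, and duplicates were 73% of the sequenced fragments in D1240A and 77% in WT. Of the plasma cell markers, 15 of 15 in D1240A and 14 of 15 in WT had an H3K27ac peak at the gene, with median pileups of 288 and 284 fragments. H3K27ac peaks also lay at genes of the lists of other cell types, at 6 of 12 B cell genes in D1240A and 6 of 12 in WT, 5 of 11 T and NK cell genes in D1240A and 4 of 11 in WT, 6 of 12 myeloid genes in D1240A and 5 of 12 in WT, and 6 of 10 epithelial and stromal genes in each. The median pileups of these lists were 11.5, 0, 10 and 23 fragments in D1240A and 8.5, 0, 0 and 25.5 in WT. High members were CIITA (261 in D1240A and 190 in WT), BCL11B (239 in each), FCGR3A (239 in D1240A and 264 in WT) and VIM (391 in D1240A and 363 in WT). The defining B cell genes PAX5 and MS4A1, the T cell gene CD3D and the myeloid genes CD14 and LYZ were at 0 in both. The part of other cell types in the results was not tested. Some regions carried peaks of every mark in every condition. They are here called shared blocks, and are the 93 windows of 1 Mb, 23 of them on chromosome 1, where no list of the 12 falls under 10% covered. They make up 3.24% of the autosomes, but held 66.9% of the length of the D1240A peaks outside genes and 72.9% of that of the WT peaks. Results are given with and without these windows.

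The starts of 4 genes show the kinds of DNA at issue, each as 250 bases before to 50 bases after the start from RefSeq, GRCh38.p14, in the direction of the gene, with CG dinucleotides in capitals. C10orf95 (chr10:102451494-102451793, minus strand) is shown because it was the single promoter, among those of 15101 autosomal protein-coding genes, that lay under an H3K36me2 locus outside genes listed in D1240A alone. The count was 0 for loci listed in WT alone and 0 for loci in both lists. Loci outside genes touch no gene body, which limits how many promoters can be counted. JCHAIN (chr4:70666459-70666758, minus strand) and IL6ST (chr5:55994914-55995213, minus strand) start at the edge of intervals with some of the largest gains. APCS (chr1:159587576-159587875, plus strand) starts at the edge of an interval with one of the largest losses.
C10orf95: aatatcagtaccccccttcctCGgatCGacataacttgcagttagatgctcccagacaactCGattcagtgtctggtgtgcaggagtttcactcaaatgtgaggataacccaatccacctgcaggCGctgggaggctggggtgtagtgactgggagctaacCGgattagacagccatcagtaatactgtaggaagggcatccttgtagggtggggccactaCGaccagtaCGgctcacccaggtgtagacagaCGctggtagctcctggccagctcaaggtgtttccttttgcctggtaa
JCHAIN: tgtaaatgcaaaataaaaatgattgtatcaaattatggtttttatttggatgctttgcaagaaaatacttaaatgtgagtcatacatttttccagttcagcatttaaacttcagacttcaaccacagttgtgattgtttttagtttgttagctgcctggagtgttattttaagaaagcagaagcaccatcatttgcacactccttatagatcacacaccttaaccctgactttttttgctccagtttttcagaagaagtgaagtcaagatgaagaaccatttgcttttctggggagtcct
IL6ST: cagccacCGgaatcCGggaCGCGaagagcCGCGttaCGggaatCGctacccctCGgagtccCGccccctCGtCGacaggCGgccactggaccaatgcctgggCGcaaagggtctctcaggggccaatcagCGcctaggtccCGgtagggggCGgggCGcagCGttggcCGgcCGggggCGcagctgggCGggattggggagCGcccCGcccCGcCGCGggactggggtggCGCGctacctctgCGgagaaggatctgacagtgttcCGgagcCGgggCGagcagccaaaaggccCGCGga
APCS: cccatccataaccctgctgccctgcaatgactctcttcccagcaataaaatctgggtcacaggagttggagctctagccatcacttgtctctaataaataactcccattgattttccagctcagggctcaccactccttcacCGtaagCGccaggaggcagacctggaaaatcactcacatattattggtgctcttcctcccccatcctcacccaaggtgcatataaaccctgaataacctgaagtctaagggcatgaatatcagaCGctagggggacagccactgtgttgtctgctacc

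H3K36me2 peaks covered 83.3% of the C10orf95 window in D1240A, 62.0% in F1295A, 83.3% in TKO and 0% in WT. The locus there reached 20 fragments in D1240A, close to the lowest pileup in the list, 14 fragments. In the JCHAIN window H3K36me2 covered 1.67% in D1240A and was at 0 in F1295A, TKO and WT, while H3K27ac covered 100% in each. The IL6ST window was at 0 for H3K36me2 and at 100% for H3K27ac in each condition. The gains described below therefore lay beside these 2 starts and not on them. The APCS window had 0% under H3K36me2 in D1240A, 0.667% in F1295A, 0% in TKO and 99.0% in WT, from a peak that reaches into the gene. JCHAIN had 0 CG dinucleotides, APCS 3, C10orf95 8 and IL6ST 36, against a median of 21 over 21156 promoters.

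Of 510 microRNA hairpins outside protein-coding genes, 20 lay under an H3K36me2 locus outside genes. Of these, 3 lay under loci listed in D1240A alone, 6 under loci listed in WT alone, 5 of them in the same peak, and 11 under shared loci. The mature sequences of the first kind, and the family that made up most of the second, are given from RefSeq with the seed, bases 2 to 8, in capitals.
hsa-miR-4426: gAAGAUGGacguacuuu
hsa-miR-4457: uCACAAGGuauugacuggcgua
hsa-miR-3193: uCCUGCGUaggaucugaggagu
hsa-miR-3689a-3p: cUGGGAGGugugauaucguggu
hsa-miR-3689c: cUGGGAGGugugauauuguggu
hsa-miR-3689d: gGGAGGUGugaucucacacucg

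MIR4426, MIR4457 and MIR3193 lay under D1240A peaks of 18, 25 and 23 fragments, and their seeds differ from each other. The 5 MIR3689 hairpins lay in 1 WT peak of 27 fragments on chromosome 9, at 134848876 to 134850479, next to the collagen gene COL5A1. miR-3689a-3p and miR-3689c share the seed UGGGAGG. All of these peaks were low, against a smallest listed pileup of 14 fragments in both lists.

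H3K36me2 outside genes covered slightly less DNA in D1240A, and the direction turned once the shared blocks were left out. The covered length was 55.8 Mb in D1240A and 57.9 Mb in WT, a ratio of 0.963. Outside the shared blocks it was 18.4 Mb in D1240A and 15.7 Mb in WT, a ratio of 1.17, and inside them it was 37.3 Mb in D1240A and 42.2 Mb in WT. In genes the D1240A list covered more on either side of that division, with 14.9 Mb in D1240A and 8.86 Mb in WT outside the blocks, and 5.98 Mb in D1240A and 5.29 Mb in WT inside them. The share of peaks outside genes was 61.0% in D1240A and 67.3% in WT, and outside the shared blocks it was 52.8% in D1240A and 60.7% in WT. The D1240A list was thus the longer of the pair and the one with less of its length between genes.

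The D1240A peaks outside genes were more numerous, shorter and lower. Their median length was 408 bp (quartiles 276 and 743 bp) in D1240A and 464 bp (311 and 902 bp) in WT. Their median pileup per 10000000 fragments was 3.25 (2.79 and 4.49) in D1240A and 3.52 (2.88 and 5.28) in WT. Their median distance to the nearest protein-coding gene was 170 kb in D1240A and 178 kb in WT. Leaving out the shared blocks kept these directions, with median lengths of 345 bp in D1240A and 375 bp in WT, median scaled pileups of 2.94 in D1240A and 3.20 in WT, and median distances of 77.0 kb in D1240A and 89.3 kb in WT. The shortest length at which each list holds peaks was not compared. Its part in peak number, peak length and the single-list loci below was not tested.

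Peaks of the lists that overlapped by at least 1 bp were joined into 70208 loci. Of these, 24034 (34.2%, exact binomial 95% interval 33.9 to 34.6%) were listed in D1240A alone, 16905 (24.1%, 23.8 to 24.4%) in WT alone and 29121 (41.5%) in both, and 148 met only a peak that touches a gene. Over all autosomal H3K36me2 loci, genes included, the background was 42% in D1240A alone and 23% in WT alone. The share of D1240A-only loci was therefore below the background outside genes, while in genes it was 53.6%, against 21.4% for WT alone. Outside the shared blocks, 21899 of 50008 loci (43.8%) were in D1240A alone and 13637 (27.3%) in WT alone. Inside them the order was the other way round, with 2135 of 20200 (10.6%) in D1240A alone and 3268 (16.2%) in WT alone, and 72.7% of loci were in both lists. The intervals cover counting error only.

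Most loci of a single list were low. The median pileup was 18 fragments for D1240A-only loci and 18 for WT-only loci. At shared loci it was 26 in D1240A and 28 in WT. An exact Poisson 95% lower bound above the point at which the other list starts needs 23 fragments in D1240A or 22 in WT. This was met by 2705 D1240A-only loci (11.3%) and by 3725 WT-only loci (22.03%), and outside the shared blocks by 2265 D1240A-only and 2480 WT-only loci. Past counting error the larger number of D1240A-only loci was thus not seen. When the D1240A list was cut to its highest peaks so that both lists covered the same length outside the shared blocks, genes included, 11068 D1240A-only loci and 15956 WT-only loci remained there. The D1240A list so cut starts at 18 fragments and the WT list at 14, which leaves WT alone with peaks of 14 to 17 fragments. Which list has more loci of its own between genes depends on the number of low peaks counted.

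The D1240A-only loci with the highest pileups outside the shared blocks were short, from 201 to 545 bp, and stood apart from the 18 fragments of the typical locus. The highest lay 2.97 kb from PRSS41, a serine protease gene, at chr16:2794953-2795497. It had 262 fragments in D1240A, no peak in F1295A, 251 fragments in TKO and no peak in WT. H3K27me3 peaks covered 62.4% of this locus in D1240A and 76.1% in WT. A locus 1.69 kb from CDON, which encodes a cell surface receptor of Hedgehog signalling, had 96 fragments in D1240A, no peak in F1295A, 97 in TKO and no peak in WT. The other 3 lay far from any protein-coding gene, the nearest being the zinc finger gene ZNF37A at 668 kb, FAM240C at 281 kb and the myosin gene MYO16 at 216 kb. They had 99, 83 and 77 fragments in D1240A and no peak in any other H3K36me2 list. No peak means listed at 0, which does not mean that no fragments lay there. A site below the lowest pileup of 14 fragments is not listed. The shortest listed length was not compared between lists, so a narrow site of more fragments may also be missing.

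The 5 highest WT-only loci outside the shared blocks had no peak in D1240A and from 52 to 78 fragments in WT. The highest, with 78 fragments in WT, overlaps the transcribed pseudogene ANKRD20A2P, and its nearest protein-coding gene, FOXD4L6 of a multi-copy forkhead family, is 855 kb away. The next, with 75 fragments in WT, lay 4.06 kb from LOC124903391. The other 3 had 54, 52 and 52 fragments in WT, and their nearest protein-coding genes were the catenin gene CTNNA3 at 824 kb, the kinase gene MAP2K6 at 8.01 kb and the adhesion receptor gene ADGRA3 at 583 kb. At the locus 8.01 kb from MAP2K6 the pileup was 43 in F1295A and 56 in TKO. D1240A was thus the list without a peak there. The locus 583 kb from ADGRA3 was alike, with 17 in F1295A and 25 in TKO. That 824 kb from CTNNA3 had 34 in TKO and no peak in F1295A. The loci nearest to FOXD4L6 and LOC124903391 had no peak in F1295A or TKO. Inside the shared blocks the highest single-list loci had 63 fragments in D1240A and 72 in WT, and the nearest protein-coding genes, ZNF33B and PRIM2, were 1143 kb and 948 kb away.

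At loci in both lists the peaks were mostly lower in D1240A. The median log2 ratio of the highest pileup per 10000000 fragments, D1240A over WT, was -0.18 (quartiles -0.40 and 0.05), and 69.1% of the 29121 loci were below 0. A ratio of at least 1.5 was reached by 590 loci (2.03%) and a ratio of at most its inverse by 2951 (10.1%), against a background over all shared autosomal loci of 2.56% higher and 8.44% lower. That background of 40975 loci is made up mostly of these same loci, so closeness to it says little. At shared loci in genes 3.92% were higher and 4.34% lower. The shift was larger inside the shared blocks. There the median was -0.27, with 117 higher and 1847 lower of 14693 loci. Outside them it was -0.08, with 473 higher and 1104 lower of 14428 loci, and in genes outside the blocks it was -0.02.

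**Figure D1:**
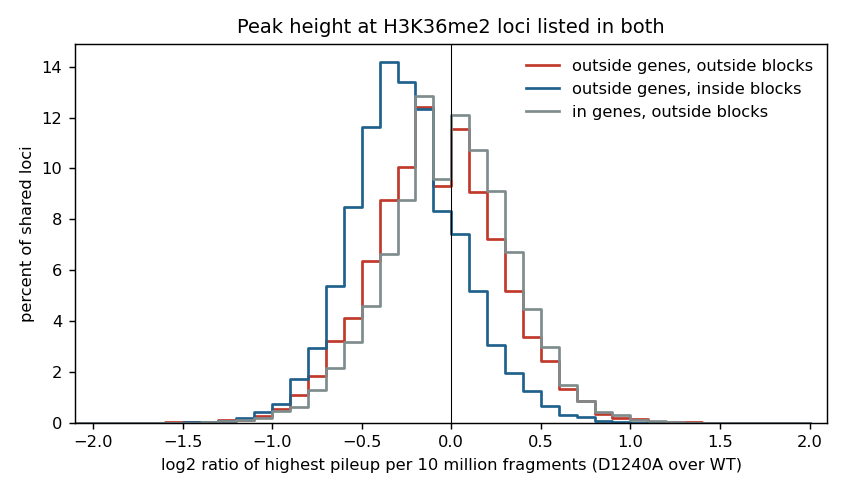
Distribution of the log2 ratio of the highest pileup per 10000000 kept fragments, D1240A over WT, at H3K36me2 loci present in both lists; the y axis is the percent of loci in each step of 0.1. Loci outside genes and inside the shared blocks are centred at -0.27, those outside genes and outside the blocks at -0.08 and those in genes outside the blocks at -0.02.

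The shared loci with the highest ratios outside the shared blocks were led by one 388 kb from CDH9, a cadherin gene, at chr5:27426370-27427208. It had 112 fragments in D1240A (exact Poisson 95% interval 92.2 to 135), 60 in F1295A, 82 in TKO and 39 in WT (27.7 to 53.3), a scaled ratio of 2.78. The next 4 had ratios of 2.61, 2.57, 2.51 and 2.42, and their nearest protein-coding genes were the amino acid transporter gene SLC1A4 at 145 kb, BRMS1L at 76.1 kb, LOC124900189 at 2.01 kb and the mitochondrial ribosome gene MRPL36 at 15.3 kb. At the locus 76.1 kb from BRMS1L the pileup was 61 in D1240A, 56 in F1295A, 46 in TKO and 23 in WT, so WT was the low one of 4. The lowest ratio was next to USP17L27, a copy of a repeated deubiquitinase gene family, with 16 fragments in D1240A, 56 in F1295A, 42 in TKO and 46 in WT, a ratio of 0.337. Reads from repeated copies may be placed in more than one of them, so this locus is uncertain. At a locus 19.1 kb from CPD, which encodes a carboxypeptidase, it was 23 in D1240A, 35 in F1295A, 49 in TKO and 65 in WT, a ratio of 0.343. The next 3 had ratios of 0.372, 0.378 and 0.378, with ARID1B at 450.3 kb, GSDMC at 376 kb and SMOC2 at 179 kb as nearest protein-coding genes. Among the loci of at least 40 fragments inside the shared blocks the ratios ran from 0.249, 2018 kb from ZNF37A, to 1.98, 21.4 kb from SEC22B.

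In relative terms the lists differed most close to genes. Outside the shared blocks and within 5 kb of a gene, 2679 of 4798 loci (55.8%, 54.4 to 57.2%) were in D1240A alone and 907 (18.9%) in WT alone. The D1240A-only share was 44.8% from 5 to 50 kb, 42.3% from 50 to 200 kb, 42.3% from 200 to 500 kb and 38.7% (37.6 to 39.7%) beyond 500 kb. The covered length followed the same order. It was 1.94 Mb in D1240A and 1.15 Mb in WT within 5 kb, a ratio of 1.69, and 3.54 Mb in D1240A and 3.51 Mb in WT beyond 500 kb, a ratio of 1.01, with ratios of 1.26, 1.12 and 1.09 between. With the covered length made equal, the bin next to genes still had more D1240A-only loci, 1437 against 1085 WT-only loci, with a covered ratio of 1.28. In each of the 4 bins farther out the order turned, with 1712 D1240A-only and 2468 WT-only loci beyond 500 kb. The cut D1240A list starts 4 fragments higher than that of WT, and the part of this in the turn was not tested. Inside the shared blocks WT covered more in every bin, and beyond 500 kb 5.55% of 12182 loci were in D1240A alone and 13.2% in WT alone.

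**Figure D2:**
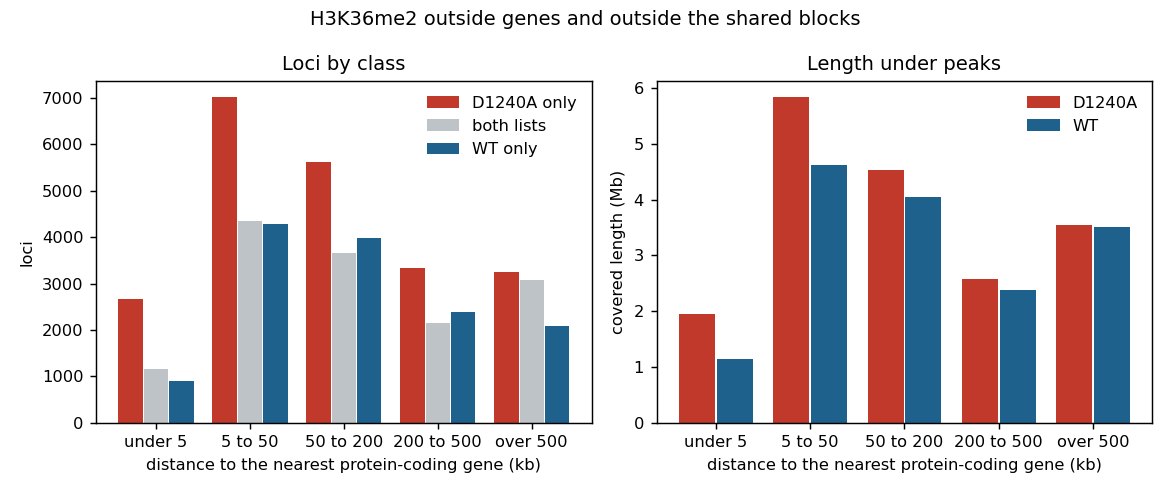
H3K36me2 loci outside genes and outside the shared blocks by distance to the nearest protein-coding gene in kb: number of loci in D1240A alone, in both lists and in WT alone (left), and Mb under peaks in D1240A and WT (right). The ratio of D1240A to WT is largest within 5 kb, with 2679 against 907 loci. The absolute gap is largest from 5 to 50 kb, with 7017 against 4278 loci. The covered lengths meet beyond 500 kb at 3.54 and 3.51 Mb.

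Within 5 kb the share also differed by the side of the gene. Before the start of a gene whose strand could be read, 1317 of 2172 loci (60.6%) were in D1240A alone and 370 (17.0%) in WT alone, and the covered length was 0.866 Mb in D1240A and 0.452 Mb in WT, a ratio of 1.91. Past the end of a gene, 807 of 1589 loci (50.8%) were in D1240A alone and 351 (22.1%) in WT alone, and the covered length was 0.625 Mb in D1240A and 0.430 Mb in WT, a ratio of 1.46. The strand was not in the tables for the genes beside the other 1037 loci. A long non-coding RNA gene was touched by 25.9% of D1240A-only, 21.4% of WT-only and 13.6% of shared loci, and with the shared blocks left out by 27.4% of D1240A-only, 24.7% of WT-only and 22.04% of shared loci. A pseudogene was touched there by 4.22% of D1240A-only, 4.42% of WT-only and 6.43% of shared loci.

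Chromosomes were not alike. D1240A-only loci outside the shared blocks outnumbered WT-only loci on 21 of 22 autosomes, by up to 2.49 times on chromosome 19. The exception was chromosome 12, with 861 D1240A-only and 1002 WT-only loci and a covered ratio of 0.825. The covered ratio was also under 1 on chromosome 9 (0.918) and chromosome 17 (0.901), and highest on chromosome 18 (1.38). With the shared blocks included, D1240A-only loci again outnumbered WT-only loci on 21 of 22 autosomes, with 1041 D1240A-only and 1167 WT-only loci on chromosome 12. The covered ratio was then under 1 on 14 of 22, and lowest on chromosome 18 (0.856), the one where it was highest without the blocks.

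The other marks differed between the classes of loci. Outside the shared blocks, H3K27ac peaks of the D1240A list overlapped 22.5% of D1240A-only loci, 5.50% of WT-only loci and 32.3% of shared loci. H3K27ac peaks of the WT list overlapped 20.3% of D1240A-only, 6.20% of WT-only and 34.6% of shared loci. H3K27me3 ran the other way between the single-list classes. H3K27me3 peaks of the WT list overlapped 8.08% of D1240A-only, 20.9% of WT-only and 57.9% of shared loci, and those of the D1240A list 7.04% of D1240A-only, 18.4% of WT-only and 54.3% of shared loci. With the covered length made equal the order held, with D1240A H3K27ac on 28.3% of D1240A-only and 6.57% of WT-only loci, and WT H3K27me3 on 10.2% of D1240A-only and 23.0% of WT-only loci. The part of distance to genes in these shares was not tested.

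A larger share of the D1240A-only loci also had a peak in the remaining H3K36me2 lists. F1295A peaks outside the shared blocks overlapped 41.0% of D1240A-only and 28.4% of WT-only loci, and TKO peaks 43.5% of D1240A-only and 23.0% of WT-only loci. Neither list had a peak at 42.2% of D1240A-only loci and at 60.3% of WT-only loci. The F1295A and TKO lists were longer than that of WT, with 67005 and 65392 peaks outside genes against 47827.

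To give the DNA between genes a name, the stretches between neighbouring protein-coding gene bodies of at least 10 kb were taken as 10104 intervals, and the percent of each under H3K36me2 peaks was compared. This percent also counts the part, within the interval, of peaks that reach into a gene. D1240A was higher by at least 10 percentage points in 126 (1.25%) and lower in 56 (0.554%). Outside the shared blocks it was higher in 106 and lower in 11 of 9844, and inside them higher in 20 and lower in 45 of 260. Of the 56 lower intervals, 46 lay on chromosome 1, 42 of them inside the shared blocks, and 5 on chromosome 12. Of the 126 higher intervals, 32 lay on chromosome 1 and 5 on chromosome 12. The share of all 10104 intervals on these chromosomes is not given here. Of the 11 lower intervals outside the blocks, 9 were bordered by an olfactory receptor gene, while none of the 106 higher ones was, against 338 of all 9844. With covered length made equal there, 63 intervals were higher and 30 lower. Counting only peaks that touch no gene, 125 intervals were higher and 60 lower in all, and 105 higher and 14 lower outside the blocks.

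The 106 higher intervals outside the shared blocks held far more H3K27ac than the typical interval, in WT as in D1240A. Their median coverage by H3K27ac was 35.4% in D1240A and 32.8% in WT, against 0.817% in D1240A and 0.745% in WT over all 9844 intervals. Their median coverage by H3K36me2, the value that chose them, was 21.2% in D1240A and 4.399% in WT. In the lists that the choice did not use it was 29.7% in F1295A and 30.8% in TKO. H3K27me3 was at 0 in 65 of the 106 in D1240A and in 58 in WT.

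Sorting all intervals outside the shared blocks by H3K27ac in WT, a value that the H3K36me2 comparison does not use, gave an ordered picture. In the 40 intervals with over 50% of their bases under H3K27ac, H3K36me2 covered 32.9% of bases in D1240A, 39.8% in F1295A, 45.1% in TKO and 18.6% in WT, and 22 of the 40 (55.0%) were higher in D1240A by at least 10 points. In the 307 intervals with 20 to 50% it covered 13.6% in D1240A, 19.2% in F1295A, 19.96% in TKO and 6.98% in WT, and 60 (19.5%) were higher. In the 3660 with no H3K27ac peak it covered 0.191% in D1240A, 0.274% in F1295A, 0.185% in TKO and 0.236% in WT, and 1 was higher. Outside the shared blocks no interval in these 2 most acetylated classes was lower in D1240A, and 1 was when peaks that reach into a gene were not counted. With the blocks included the covered share turned in the class with 20 to 50% and was closer to level in that with over 50%. In the 401 intervals with 20 to 50% H3K36me2 then covered 37.6% in D1240A, 38.5% in F1295A, 39.2% in TKO and 40.9% in WT, a D1240A over WT ratio of 0.918, and 69 were higher and 22 lower. In the 89 intervals with over 50% it covered 58.9% in D1240A, 67.0% in F1295A, 64.0% in TKO and 56.6% in WT, a ratio of 1.04, and 31 were higher and 4 lower. With the blocks left out and the covered length made equal, the D1240A over WT ratio was 1.63 and 1.65 in these 2 classes, with 20 and 36 higher and 0 lower, and 0.582 where H3K27ac was at 0.

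Sorted by H3K27me3 in WT, the D1240A over WT ratio of covered bases ran the other way up to 50%. It fell from 2.52 at 0 to 0.813 at 20 to 50%. The share of intervals higher in D1240A did not fall over these classes, against 1.08% higher and 0.112% lower over all 9844. Where H3K27me3 was at 0 in WT, 5791 intervals had 0.431% of bases under H3K36me2 in D1240A, 0.723% in F1295A, 0.772% in TKO and 0.171% in WT, and 58 were higher and 1 lower in D1240A. In the 91 intervals with 20 to 50% under H3K27me3, H3K36me2 covered 11.8% in D1240A, 12.9% in F1295A, 12.1% in TKO and 14.5% in WT, and 2 were higher and 4 lower. In the 11 intervals with over 50% under H3K27me3 the lists were level, with 35.2% in D1240A and 35.1% in WT. With the blocks included, D1240A stood at 26.5% and WT at 30.04% in the 190 intervals with 20 to 50%, with 9 higher and 26 lower. In the 93 intervals with over 50% D1240A stood at 49.8% and WT at 56.8%, with 4 higher and 20 lower. H3K36me2 was thus most extensive in the intervals richest in either mark, and outside the shared blocks D1240A exceeded WT in the acetylated ones.

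**Figure D3:**
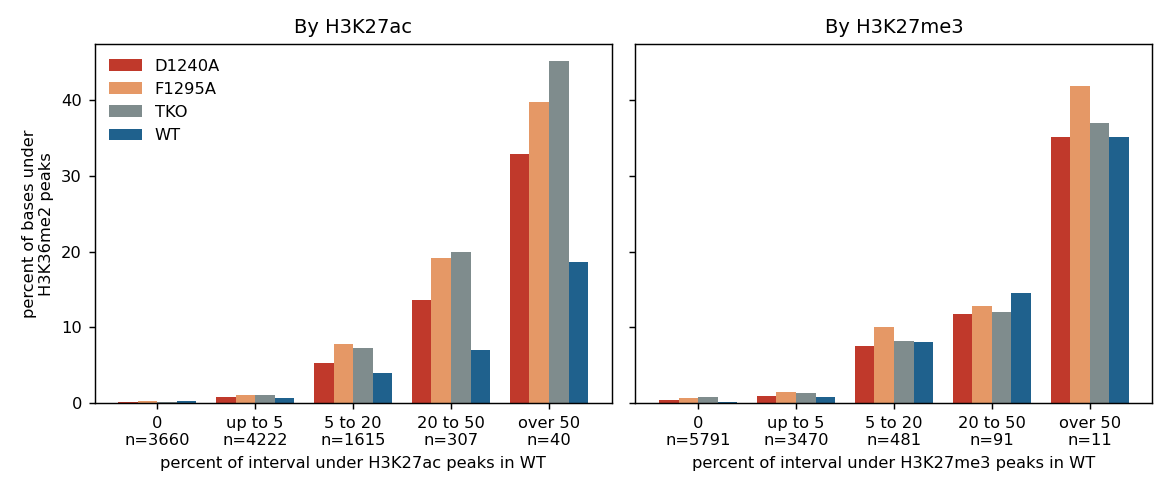
Percent of bases under H3K36me2 peaks in D1240A, F1295A, TKO and WT for intervals outside the shared blocks, grouped by the percent of the interval under H3K27ac (left) or H3K27me3 (right) peaks in WT; n is the number of intervals. With over 50% H3K27ac the bars are 32.9, 39.8, 45.1 and 18.6%; with 20 to 50% H3K27me3 they are 11.8, 12.9, 12.1 and 14.5%.

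The interval of at least 20 kb with the largest gain outside the shared blocks lay between JCHAIN, which encodes the joining chain of IgM and IgA made by plasma cells, and UTP3, a ribosome biogenesis gene (chr4:70666509-70688531). Peaks covered 41.7% of it in D1240A, 47.3% in F1295A, 64.1% in TKO and 9.57% in WT, a difference of 32.1 points between D1240A and WT. There were 13 peaks in D1240A and 7 in WT. H3K27ac covered 96.8% in D1240A and 91.2% in WT, and H3K27me3 was at 0 in all 4 conditions.

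Next was the interval between SEPHS2, which makes selenophosphate, and ITGAL, the alpha chain of the leukocyte integrin LFA-1 (chr16:30445875-30472741). It was covered to 38.3% in D1240A, 54.5% in F1295A, 54.9% in TKO and 8.20% in WT. Between ALPK2 and MALT1, a protease of NF-kB signalling (chr18:58629092-58671464), the values were 36.7% in D1240A, 54.9% in F1295A, 50.4% in TKO and 10.6% in WT. The stretch between IL6ST, which encodes the gp130 receptor chain through which interleukin 6 signals, and ANKRD55 is the longest of these 5, at 104.716 kb (chr5:55994964-56099679). It had 53 peaks in D1240A and 21 in WT, which covered 34.0% in D1240A, 52.6% in F1295A, 55.9% in TKO and 8.54% in WT. Between the antiproliferative gene BTG2 and FMOD, which encodes fibromodulin (chr1:203309603-203340627), coverage was 48.4% in D1240A, 58.3% in F1295A, 57.0% in TKO and 23.0% in WT.

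In all 5, D1240A lay below F1295A and TKO and above WT, the 1 WT list against which all were set, and H3K27ac covered at least 50.9% in WT. The extent of the peaks chose these intervals. The highest pileup in the JCHAIN interval was 35 fragments in D1240A (24.4 to 48.7) and 22 in WT (13.8 to 33.3). In the IL6ST interval it was 36 in D1240A and 39 in WT. The Poisson intervals of D1240A and WT overlapped in each of the 5.

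**Figure D4:**
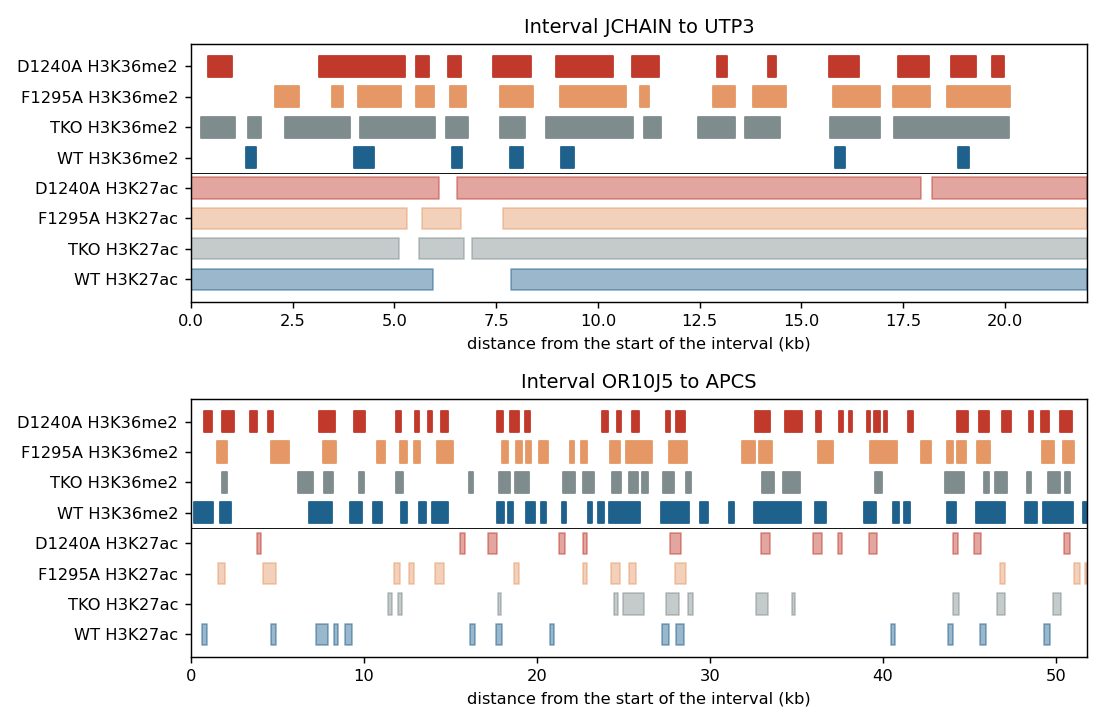
Peaks of H3K36me2 and H3K27ac in D1240A, F1295A, TKO and WT by distance in kb from the start of 2 intervals between genes, JCHAIN to UTP3 (top, a gain) and OR10J5 to APCS (bottom, a loss); each bar is 1 peak to scale. In the first, 13 D1240A and 7 WT peaks of H3K36me2 lie in DNA nearly all under H3K27ac; in the second, 33 D1240A and 29 WT peaks are spread over the interval, with the D1240A ones narrower.

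The 5 largest losses outside the shared blocks were smaller, from 15.9 to 12.7 points, and 4 of them lay beside olfactory receptor genes, which act in the sensory neurons of the nose. Between OR10J5 and APCS, the gene of the serum amyloid P component (chr1:159536008-159587825), peaks covered 27.1% in D1240A, 33.3% in F1295A, 24.9% in TKO and 42.7% in WT. D1240A had more peaks there, 33 against 29 in WT, but narrower ones, and 1 of the WT peaks reaches into APCS. With peaks less than 1 kb apart merged, the difference in this interval was -8.89 points, under the limit. Between OR6C70 and OR6C68 on chromosome 12 coverage was 10.5% in D1240A, 16.0% in F1295A, 3.89% in TKO and 26.4% in WT. On the same stretch of chromosome 12, the intervals OR2AP1 to OR10P1 and OR6C74 to OR6C6 had 16.4% and 6.33% in D1240A and 29.4% and 19.1% in WT. At a -log10 q of at least 5 these 2 fell short of the limit, with differences of -7.33 and -2.50 points, and that from OR10J5 to APCS was -10.1 points. The fifth lay between CD1A and CD1B, which present lipid antigens to T cells (chr1:158258270-158285404), with 14.6% in D1240A, 34.5% in F1295A, 13.9% in TKO and 30.5% in WT. Here F1295A was on the side of WT and TKO on that of D1240A. These intervals had little H3K27ac, at most 11.9% in WT. H3K27me3 covered 14.6% in D1240A and 36.7% in WT from OR10J5 to APCS, and 16.1% and 31.8% from CD1A to CD1B. From OR2AP1 to OR10P1 it was 14.3% in D1240A and 28.7% in WT. From OR6C70 to OR6C68 it was 7.82% in D1240A and 7.15% in WT, and from OR6C74 to OR6C6 4.83% and 7.53%.

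**Figure D5:**
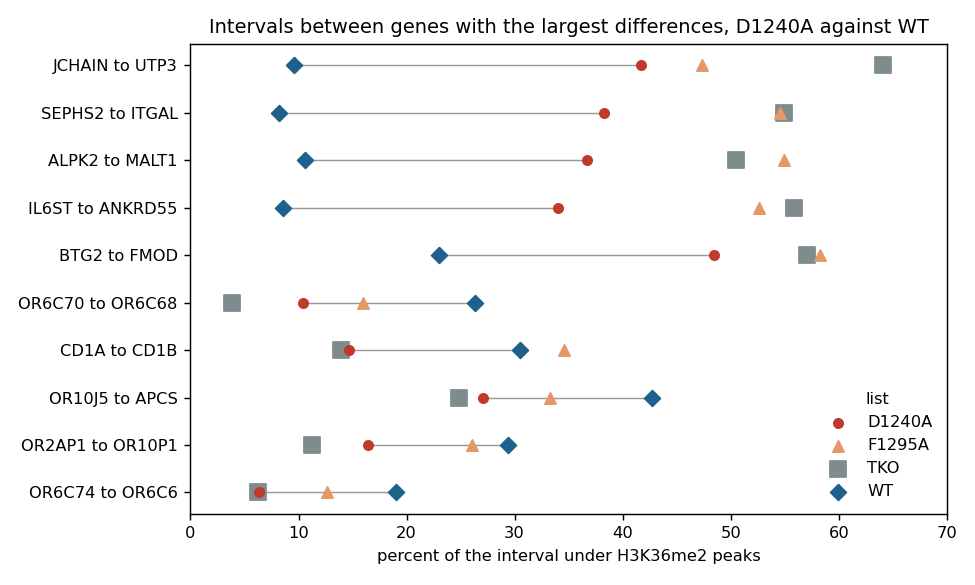
Percent of each interval under H3K36me2 peaks in D1240A, F1295A, TKO and WT for the 5 intervals of at least 20 kb with the largest gains (top) and the 5 with the largest losses (bottom) outside the shared blocks; a line joins D1240A and WT. In the gains WT lies lowest, at 8.20 to 23.0%, and in the losses it lies above D1240A, at 19.1 to 42.7%.

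Inside the shared blocks the largest gains were between the transcription factor gene MEF2D and IQGAP3 (74.3% in D1240A, 84.1% in F1295A, 72.6% in TKO and 59.0% in WT), between the co-chaperone gene PTGES3 and NACA (32.1% in D1240A, 57.6% in F1295A, 49.4% in TKO and 19.6% in WT), and between the nestin gene NES and CRABP2 (18.7% in D1240A, 39.9% in F1295A, 8.52% in TKO and 7.11% in WT). Counting only peaks that touch no gene, the interval from MEF2D to IQGAP3 was covered to 60.6% in D1240A and 59.0% in WT, under the limit. The interval from NES to CRABP2 was under it at a -log10 q of at least 5 (8.26 points) and at equal covered length (9.496 points), and that from PTGES3 to NACA with peaks merged (8.71 points). The largest losses there were all on chromosome 1. Between the nuclear receptor gene NR1I3 and PCP4L1 coverage was 40.2% in D1240A and 61.4% in WT. Between FCRL3 and FCRL2, Fc receptor-like genes of B lineage cells, it was 15.2% in D1240A and 33.4% in WT, and between the skin barrier genes HRNR and FLG 33.3% in D1240A and 51.4% in WT. All 12 lists, of 3 marks, have peaks in these blocks.

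Gene lists were read through the intervals on either side of each gene. Over all 13593 genes with such an interval, 242 (1.78%) had one that was higher in D1240A and 96 (0.706%) one that was lower. Of the plasma cell list, 3 of 13 genes were higher (JCHAIN, IRF4 and MCL1) and 1 was lower (FCRL5), with a median difference of 0.68 points, against 0 over all genes. Between DUSP22 and IRF4, a transcription factor gene of plasma cells, the interval was covered to 26.5% in D1240A, 35.6% in F1295A, 29.6% in TKO and 11.02% in WT. Beside MCL1, the survival factor of myeloma cells, it was 59.9% in D1240A, 68.9% in F1295A, 78.1% in TKO and 39.4% in WT, inside a shared block. The interval on the other side of MCL1, up to ENSA, was slightly lower in D1240A than in WT. It was covered to 70.3% in D1240A, 84.6% in F1295A, 79.8% in TKO and 73.9% in WT. Beside FCRL5, also inside a shared block, coverage was 24.4% in D1240A, 45.2% in F1295A, 20.1% in TKO and 34.7% in WT. Of the B cell list 1 of 10 was higher, CIITA, the activator of MHC class II genes, with 28.1% in D1240A, 38.7% in F1295A, 32.6% in TKO and 4.72% in WT. The plasma cell list also carries the most H3K27ac of the cell type lists, with a median pileup of 284 fragments in WT against at most 25.5 in the others, and the part of H3K27ac in its count was not tested.

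Cell adhesion genes, the subject of the series title, had 3 of 47 higher (ITGAL, ICAM2 and CDH17), none lower, and a median difference of 0 points. Beside ICAM2, an adhesion molecule of leukocytes and endothelium, coverage was 13.4% in D1240A, 21.3% in F1295A, 28.9% in TKO and 1.28% in WT, and beside the cadherin gene CDH17 it was 16.4% in D1240A, 27.2% in F1295A, 31.0% in TKO and 5.80% in WT. Of the list of t(4;14) and chromatin genes 0 of 15 passed in either direction, of the T and NK cell list 0 of 8 and of the epithelial and stromal list 0 of 9. Of the myeloid list 0 of 9 were higher and 1 was lower, the calprotectin gene S100A8, with 13.5% in D1240A, 41.2% in F1295A, 10.6% in TKO and 30.9% in WT, inside a shared block. With lists this short, a single gene moves the share by more than the background of 1.78%.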

How the data were processed

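ChIPmentation of H3K36me2, H3K27me3 and H3K27ac covers 4 conditions, with 2 replicates each and 4 inputs, 28 samples in all. The inputs are not analysed here. Per the submitters' processing notes, the build was GRCh38 and the tools were MACS2 2.2.7.1 with Bowtie2 2.4.5, FastQC 0.11.4 and Trimmomatic 0.36. Per the file headers, MACS ran once on both replicates of a condition and mark, in paired-end mode without a control or local background, at q 0.05 and with 1 fragment at any position. Pileup is a signal that the authors deposited unscaled. Fold enrichment, a ratio, was deposited too, and follows from the pileup with 1 background value per list. The authors' -log10 q values rest on that same background and were used for an alternative only.

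Pileups were divided by the kept fragments in each header and given per 10000000. Gene bodies came from a RefSeq table, GRCh38.p14, of which 18973 autosomal protein-coding genes were used and 177 with the coordinates of a separate scaffold were left out. Peaks of D1240A and WT that overlapped by 1 bp or more formed loci, and 1 Mb blocks covered to at least 10% by all 12 lists were set apart. The limits were a ratio of 1.5 at shared loci and 10 percentage points in intervals of at least 10 kb, where all peaks count for the part inside the interval. Named regions were the 5 most extreme of each kind outside the blocks and 3 inside them, with at least 40 fragments in the higher list for ratios and at least 20 kb for intervals, plus up to 4 genes per list that passed the limit. Single-list loci were ranked by pileup. Of the promoters to be printed, C10orf95 met the plan, and JCHAIN, IL6ST and APCS were added after their values were seen, as were the sorting of intervals by other marks, the side of the gene and the microRNAs. The members and lists were chosen with earlier results of these data known. Intervals on counts are at 95% and cover counting error only. Alternatives were a -log10 q of 5, equal covered length, overlap, gene sets and margins, merging, scaling and limits. Python 3.11.15 was used with pandas 2.3.3, numpy 2.4.6, matplotlib 3.10.9 and SciPy 1.17.1. Locus classes, ratio calls and interval counts were tested on copies of the WT list with planted differences. The other steps were not tested in this way.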

Additional observations from a re-analysis of the deposited data

How the results depend on the processing

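No paired analysis was possible because each list pools both replicates of its condition; for the same reason no replicate could be left out. Counts are given as D1240A only and WT only, then loci in both lists higher and lower in D1240A, then the median log2 ratio, the covered ratio, and intervals higher and lower; as reported they are 24034, 16905, 590, 2951, -0.18, 0.963, 126 and 56, and counts within 1.5 times of these, except single-list counts at equal covered length, are left out. Leaving out the shared blocks gave 1104 lower loci, a median of -0.079, a covered ratio of 1.17, which is the other direction, and 11 lower intervals. A -log10 q of at least 5 gave 8442 and 8410 single-list loci, 175 higher loci, a median of -0.23 and a covered ratio of 0.913. Equal covered length gave 17955 and 18206 single-list loci, a median of -0.18 and a covered ratio of 0.923. Gene bodies of any type gave -0.22, 0.941, 215 and 135, and a 5 kb margin -0.20, 0.948 and 77 higher intervals. Merging peaks less than 1 kb apart gave 1380 lower loci, -0.13, a covered ratio of 0.9997, and 220 and 90 intervals. Raw pileup gave -0.14. Limits of 2 and 20 points gave 30 and 182 loci and 29 and 8 intervals. Of the alternatives chosen after seeing the data, counting intervals without peaks that touch a gene gave 14 lower ones outside the blocks, equal covered length outside the blocks gave 11068 D1240A-only loci, 766 lower loci, -0.046, 0.901, and 63 and 30 intervals, and the counting error of the pileup left 2705 and 3725 single-list loci. The cause of these changes was not tested. A common minimum pileup moved none of the 8 past that limit. A stricter overlap, for which intervals were not counted, moved none of the others. The 16 named intervals kept their direction under each of 5 settings, and the 10 outside the blocks also at equal length there. Past 10 points remained 13 of 16 with the stricter q, 14 with merging, 15 at equal covered length, 15 with peaks outside genes only and 16 with a common minimum pileup. Depth limits the pileups, most of which lie within counting error of the lowest listed.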
